A study of Rattus norvegicus with 12 samples.

Results

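The genes of immune cells that live in the gut lining were followed across 12 arrays of rat duodenal mucosa. The set was chosen with earlier results of these data known. It was a fixed list of 38 symbols for T cells, cytotoxic cells, B cells, plasma cells and myeloid cells. Of these, 31 had a probe under the platform's gene symbol among the 22523 probes of the array, each with 1 probe. The other 7, Cd2, Itgae, Cd79a, Jchain, Cd68, Csf1r and Itgax, had none and were not analysed here. The 31 measured genes were read as 20 lymphoid genes (10 of T cells, 5 of cytotoxic granules and chemokines, 2 of B cells, 3 of plasma cells), 7 myeloid genes and 4 that both branches carry. All animals were female Sprague Dawley rats, an outbred strain, labelled as 9 weeks old. The 6 swimming rats had trained for 1 week and then swam 1 hour per day on 5 days per week for 2 weeks, in water at 30 to 32 °C. The 6 control rats spent the same 2 weeks in the pool but stayed sedentary. RNA came from cells scraped off the inner surface of a duodenal segment of 10 cm, so each value is the summed signal of all cells in a scraping. In such bulk RNA, fewer cells of a type and less RNA per cell cannot be told apart.

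Lymphocytes that sit between the epithelial cells of the small intestine are mostly CD8 T cells, which carry granules with granzymes and perforin and release the chemokine CCL5. Below the epithelium, in the lamina propria, lie CD4 T cells, antibody-secreting plasma cells and macrophages, while B cells gather in lymphoid follicles. T and B cell receptors and several myeloid receptors signal through small partner chains, and antigen is shown to CD4 T cells on MHC class II molecules, whose assembly needs the chaperone CD74.

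Levels are given as log2 intensity after background correction and quantile normalization, and a difference of 1 is a doubling on that scale, which understates the change of dim probes. The median probe lay at 6.36, and 26 of the 31 genes were brighter, of which Cd4, Ms4a1 and Cd163 were so only through their highest array. Cd5, Irf4, Itgam, Cx3cr1 and Adgre1 were dimmer, in a range where RNA is hard to tell from background. Raw array medians lay between 62.7 and 88.8. The array titled swimming 5 stood apart: 11 of 14 markers of the proximal small intestine lay more than 1 log2 below all other arrays, while 5 of 11 markers of the large intestine lay as far above. Alpi, the alkaline phosphatase of small intestinal enterocytes, read 6.0 there against 14.69 to 15.04 in the other 11, while S100g and Fabp1, further markers on that list, read 14.70 and 13.89. Epithelial marker means were alike, at 13.35 against 13.18 to 13.60. Control 3 and swimming 3, control 4 and control 6, and swimming 4 and swimming 6 were 3 near-identical pairs. The spread of their differences over bright probes was 0.078 to 0.16 log2, and 0.22 or more in the 52 remaining pairs without swimming 5. Each pair within a group was counted as 1 sample in the means and SDs below (n = 5 per group), while control 3 and swimming 3 lie on opposite sides of the comparison. Fitted differences, SE and p come from all 12 arrays unless arrays are said to be left out or averaged. Near-identical arrays enter these fits separately unless averaged, so SE and p may be too small. Labels do not name the animals behind these pairs, so p-values measure the spread between arrays, part of which may be technical.

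None of the leukocyte genes differed between the groups past the threshold. limma called 0 of the 31 genes, where the share of all probes called was 0%, and the smallest adjusted p among them was 0.911. At an unadjusted p under 0.05 stood 2 of 31, Prdm1 and the dim Cd5, beside 4.78% of all probes. Averaging the near-identical pairs within a group left 1 of 31, beside 630 of 22523 probes. Without swimming 5, with the pairs not averaged, these were 3 of 31, Prdm1, Cd5 and Cd74, beside 5.05% of all probes. Of the 20 lymphoid genes 6 read higher and 14 lower in swimming rats, with a median difference of -0.16 log2, and of the 7 myeloid genes 2 read higher and 5 lower, with a median of -0.093. Over all probes the median difference was -0.0015, with 11120 higher and 11403 lower. Without swimming 5 the lymphoid genes split into 10 higher and 10 lower with a median of -0.0012, and the myeloid genes into 3 higher and 4 lower with a median of -0.034. The restricted comparison leaves out swimming 5 and the pair that spans the groups, and averages the pairs within a group. Its medians were -0.039 and -0.029. There 4 of 31 stood at an unadjusted p under 0.05, beside 3.27% of all probes. Of these, 3 were T cell genes and 1 was a plasma cell gene. The groups did not separate for any member, as the ranges of control and swimming arrays overlapped in 31 of 31, while 0.182% of all probes had ranges that did not overlap.

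**Figure D1:**
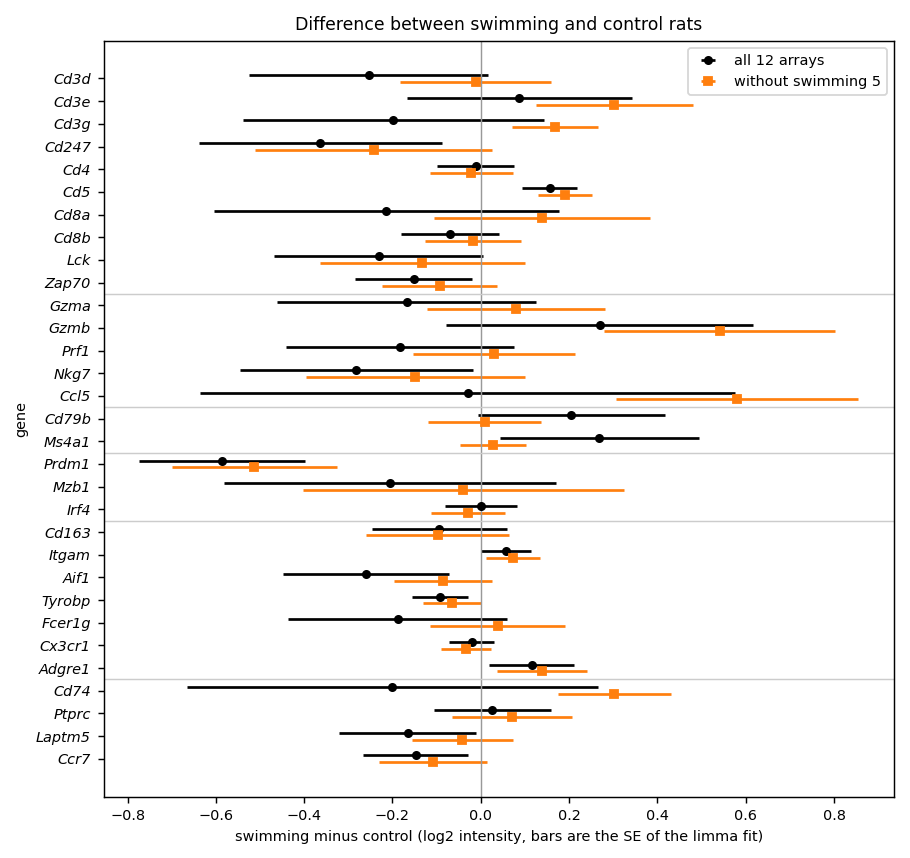
Difference between swimming and control rats for each of the 31 genes (vertical axis, grouped by cell type), in log2 intensity on the horizontal axis, with the SE of the limma fit as bars. Black points use all 12 arrays and orange squares leave out swimming 5. Ccl5 moves from -0.030 to 0.58 and Cd74 from -0.20 to 0.30 when that array is left out, while Prdm1 stays at -0.59 and -0.51.

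No gene of the T cell receptor complex passed the threshold, with or without swimming 5. Cd3g, a signalling chain of the receptor, read from 10.57 to 10.95 (median 10.72) in control arrays and from 8.73 to 11.05 (median 10.98) in swimming arrays. The lowest value was that of swimming 5, and the other 5 swimming arrays began at 10.57. Control samples averaged 10.76 ± 0.15 and swimming samples 10.47 ± 1.00 (SD, n = 5 per group), and the fit gave -0.20 (SE 0.34) and of 0.17 (SE 0.098) without swimming 5. Cd3d, another chain, read from 8.29 to 9.20 (median 8.57) in control and from 7.19 to 8.99 (median 8.57) in swimming arrays, with swimming 5 lowest again. Its difference was -0.25 (SE 0.27), and -0.012 without that array.

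Cd8a, the chain of the CD8 coreceptor that marks cytotoxic T cells, read from 8.13 to 9.42 (median 8.49) in control and from 6.59 to 9.43 (median 8.48) in swimming arrays. Control 3 and swimming 3 gave the highest values and swimming 5 the lowest, at 6.59 against 8.13 or more elsewhere. Its difference was -0.21 (SE 0.39), and 0.14 (SE 0.25) without swimming 5. Cd247, the zeta chain, read from 7.50 to 9.09 (median 7.93) in control and from 7.10 to 8.41 (median 7.68) in swimming arrays, where control 5 was highest. It differed by -0.36 (SE 0.28), and by -0.24 without swimming 5. Zap70, the kinase that binds the phosphorylated receptor chains, read from 6.46 to 7.04 in control and from 6.26 to 7.0 in swimming arrays and differed by -0.15 (SE 0.13). The other 5 T cell genes, Cd3e, Cd4, Cd5, Cd8b and Lck, differed by between -0.23 and 0.16 with all arrays. Cd3e differed by 0.30 (SE 0.18) without swimming 5 and by 0.36 (SE 0.14) in the restricted comparison. In that comparison Cd247 differed by -0.45 (SE 0.34), and of the 10 T cell genes 4 read higher and 6 lower. Cd4, which marks helper T cells and some macrophages, lay next to the median probe, with array values from 6.18 to 6.79.

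Of the cytotoxic genes, Ccl5 and Gzmb varied most between arrays. Ccl5, the chemokine of activated T and NK cells, read 11.12, 11.98, 12.04, 10.58, 10.64 and 10.63 in controls 1 to 6 and 11.62, 11.90, 12.00, 11.59, 8.08 and 11.63 in swimming arrays 1 to 6. Controls 4, 5 and 6 were low among the duodenal arrays, and swimming 5 lay far under all. With all arrays Ccl5 differed by -0.030 (SE 0.61), without swimming 5 by 0.58 (SE 0.27, unadjusted p = 0.0557 and adjusted p = 0.891 by limma), and in the restricted comparison by 0.62 (SE 0.32). Gzmb, granzyme B, a protease that starts death of the target cell, read from 7.96 to 9.26 (median 8.41) in control and from 7.44 to 9.57 (median 9.16) in swimming arrays. Swimming 2 was highest and swimming 5 lowest, and the difference was 0.27 (SE 0.35), or 0.54 (SE 0.26) without swimming 5. Gzma, granzyme A, read from 9.61 to 10.83 (median 10.28) in control and from 8.89 to 10.90 (median 10.28) in swimming arrays and differed by -0.17 (SE 0.29). Nkg7, a granule membrane protein, read from 7.74 to 8.97 (median 8.28) in control and from 7.35 to 8.85 (median 7.99) in swimming arrays and differed by -0.28 (SE 0.26). Prf1, the pore-forming perforin, differed by -0.18 (SE 0.26). With all arrays the direction was thus not shared, with Gzmb above and the other 4 below 0. Without swimming 5, 4 of the 5 read higher, with Gzma at 0.080 and Prf1 at 0.030. Nkg7 was then lower, at -0.15, and 0 of the 5 were called. Between the 8 distinct samples that leave out swimming 5 and count each near-identical pair once, the SD was 0.58 for Gzmb and 0.58 for Ccl5, where probes within 0.5 log2 of their brightness had median SDs of 0.28 and 0.28. For Gzma, Prf1 and Nkg7 it was 0.38, 0.33 and 0.41, against 0.27, 0.26 and 0.27.

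The promoters of the granule genes are shown because these genes lay together below all other arrays in swimming 5. Gzma, Gzmb and Prf1 lay more than 1 log2 below the mean of the others, while Nkg7 differed from it by -0.88. RefSeq windows on GRCr8, from 250 bases before to 50 bases after the start of transcription, were found for 21 of the 31 genes (22 windows), and among the cytotoxic genes for Gzma, Gzmb, Prf1 and Nkg7. On both strands 7 short patterns were searched: the X box core TAGCAAC, the Y box patterns ATTGG and also CTGATT, the RUNX core TGTGGT, the ETS-type pattern GAGGAAG, the E box CAGCTG, and the TATA box pattern TATAAA. The pattern TGTGGT, which RUNX factors bind, stood in 4 of these 4 genes and in 17.3% of all 33469 windows. Gzmb held it 3 times. It stood in 1 of 8 T cell genes with a window, Lck, and in 2 of 4 myeloid genes, Itgam and Cx3cr1. The patterns described here were picked from the 7 after their matches were seen. Capitals mark TGTGGT or its reverse complement, 5′ to 3′ on the strand of the gene.
Gzmb, chr15:34462420-34462719, minus strand: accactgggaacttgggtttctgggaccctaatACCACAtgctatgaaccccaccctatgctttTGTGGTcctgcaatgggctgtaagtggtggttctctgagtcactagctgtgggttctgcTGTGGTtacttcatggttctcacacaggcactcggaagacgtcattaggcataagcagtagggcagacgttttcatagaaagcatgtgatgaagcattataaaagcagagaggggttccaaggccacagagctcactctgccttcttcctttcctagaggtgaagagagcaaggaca
Gzma, chr2:46485715-46485774, minus strand: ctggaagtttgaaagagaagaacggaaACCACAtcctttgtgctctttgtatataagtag
Prf1, chr20:29788879-29788938, plus strand: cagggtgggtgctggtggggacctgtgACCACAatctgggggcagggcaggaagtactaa
Nkg7, chr1:102981364-102981423, plus strand: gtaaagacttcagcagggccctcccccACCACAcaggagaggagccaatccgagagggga

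Both measured B cell members, Ms4a1 and Cd79b, were highest in swimming 5. Of 19 other B and plasma cell genes, 0 lay there above every other array and more than 1 log2 above their mean. Ms4a1, the B cell surface protein CD20, read from 6.12 to 6.38 (median 6.29) in control and from 6.1 to 6.37 in 5 swimming arrays, and 7.73 in swimming 5. The 11 other arrays thus lay close to the median probe or below it, and swimming 5 lay clear of them. Its difference was 0.27 (SE 0.23) with all arrays and 0.028 (SE 0.074) without swimming 5. Cd79b, a signalling chain of the B cell receptor, read from 6.67 to 7.43 (median 6.97) in control and from 6.76 to 7.15 in 5 swimming arrays, and 8.15 in swimming 5. Its difference was 0.21 (SE 0.21), or 0.0093 (SE 0.13) without that array.

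Among plasma cell genes, Prdm1 gave the smallest unadjusted p of all members. Prdm1, which encodes the repressor BLIMP1 of plasma cells and is also active in effector T cells and in gut epithelium, read 7.18, 6.56, 6.83, 6.94, 7.71 and 7.12 in controls 1 to 6 and 6.63, 6.39, 6.85, 6.73, 6.11 and 6.11 in swimming arrays 1 to 6. All 6 swimming arrays lay under the control mean, yet the ranges overlapped. These 6 arrays are not 6 distinct samples. Swimming 4 and swimming 6, a near-identical pair, still read 6.73 and 6.11, and swimming 3 is near-identical to control 3. Control samples averaged 7.06 ± 0.43 and swimming samples 6.48 ± 0.28 (SD, n = 5 per group), and the fit gave -0.59 (SE 0.19, unadjusted p = 0.00847 and adjusted p = 0.911 by limma). It was -0.51 (SE 0.19) without swimming 5 and -0.64 (SE 0.24) in the restricted comparison. Mzb1, a chaperone of antibody assembly, read from 6.94 to 9.10 (median 7.19) in control and from 6.42 to 8.22 (median 7.26) in swimming arrays. Control 2, at 9.10, and swimming 1, at 8.22, stood well above the rest, which lay at 7.51 or less. Its difference of -0.21 (SE 0.38) turned to 0.12 without control 2. Irf4, a factor that drives plasma cell formation, was dim in all arrays, from 5.79 to 6.19.

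Myeloid genes differed little between the groups. Fcer1g, the signalling chain of Fc receptors, read from 9.60 to 10.55 (median 9.96) in control and from 8.65 to 10.30 (median 9.99) in swimming arrays. Control 2 and swimming 1 were highest and swimming 5 was lowest. The difference was -0.19 (SE 0.25), and 0.038 (SE 0.15) without swimming 5. Aif1, a calcium-binding protein of macrophages also called IBA1, read from 9.76 to 10.09 (median 9.87) in control and from 8.76 to 10.18 (median 9.68) in swimming arrays, a difference of -0.26 (SE 0.19), and -0.085 without swimming 5. Tyrobp, the adaptor DAP12 of myeloid and NK cell receptors, read from 6.81 to 7.0 in control and from 6.69 to 6.96 in swimming arrays and differed by -0.093 (SE 0.064). Cd163, the haemoglobin scavenger receptor of tissue macrophages, read 7.19 in control 2 and from 6.15 to 6.50 in the other 11 arrays, swimming 5 included. The integrin Itgam, the fractalkine receptor Cx3cr1 and Adgre1, the macrophage protein F4/80, were dim, with differences between -0.021 and 0.12.

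Of the genes shared by both branches, Cd74 lay farthest below the other arrays in swimming 5. Cd74, the class II invariant chain, read 12.13, 12.27, 12.41, 11.82, 11.58 and 11.93 in controls 1 to 6 and 12.27, 12.36, 12.36, 12.24, 9.31 and 12.39 in swimming arrays 1 to 6. Apart from swimming 5 the swimming arrays lay close together, inside the range of the controls. The difference was -0.20 (SE 0.47) with all arrays and 0.30 (SE 0.13, unadjusted p = 0.0359 and adjusted p = 0.891 by limma) without swimming 5. Laptm5, a lysosomal protein of blood cells, read from 8.90 to 9.36 (median 9.07) in control and from 8.32 to 9.38 (median 9.01) in swimming arrays and differed by -0.17 (SE 0.15). Ccr7, the receptor that guides cells to lymphoid tissue, read from 7.21 to 7.86 (median 7.32) in control and from 7.08 to 7.51 (median 7.33) in swimming arrays and differed by -0.15 (SE 0.12). For both genes the groups overlapped in part. Ptprc, the pan-leukocyte phosphatase CD45, differed by 0.026 (SE 0.13). Ptprc in swimming 5, at 6.45, lay inside the range of the other arrays (6.32 to 7.14). Its mean over all arrays was 6.66, not far above the median probe, so a fall could hardly show.

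**Figure D2:**
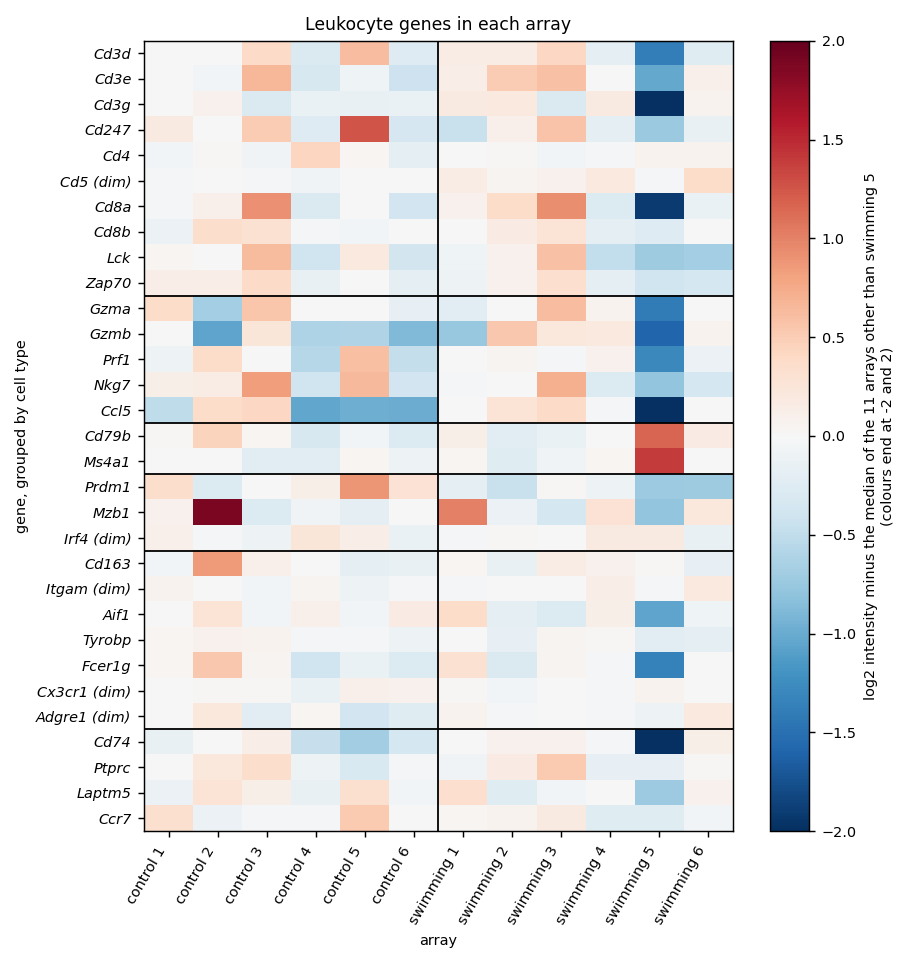
Log2 intensity of each of the 31 genes (rows, grouped by cell type) in each of the 12 arrays (columns), minus the median of the 11 arrays other than swimming 5; colours end at -2 and 2, and dim marks genes under the median probe. Swimming 5 is low for T cell and cytotoxic genes and Cd74 and high for Cd79b and Ms4a1, while control 2 is high for Mzb1 (9.10) and Cd163 (7.19).

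Swimming 5 was compared with the other 11 arrays as 1 array against 11, so these are descriptions with no test and no replicate. The array was singled out with its profile known. More than 1 log2 below the mean of the others and below every one of them were 12 of the 31 genes, and 2 lay as far above, where 3.57% of all probes lay below and 3.39% above. Among probes brighter than the median probe, which the members mostly are, these shares were 7.14% and 6.40%. The 12 comprised 9 of 20 lymphoid genes, 2 of 7 myeloid genes and Cd74, and both genes above were B cell genes. Among the 23 genes brighter than the median probe also without their highest array, 12 lay below and 1, Cd79b, above. These 12 included 8 of 13 such T cell and cytotoxic genes and 2 of 3 such myeloid genes. The other myeloid genes lay close to the median probe or under it, where a fall can hardly show. The median difference was -1.12 over the 15 T cell and cytotoxic genes, 0.16 over the 5 B and plasma cell genes and -0.066 over the 7 myeloid genes, beside 0.0015 over all probes. Ccl5 differed most from the mean of the others, by -3.34 (10.2-fold lower on this scale), then Cd74 at -2.85 (7.21-fold), Cd3g at -2.11 and Cd8a at -2.04. Cd3d, Gzma, Gzmb, Prf1 and Cd3e followed at -1.46 to -1.12, with Fcer1g at -1.34, Aif1 at -1.09 and Mzb1 at -1.02. Ms4a1 lay 1.46 above (2.74-fold) and Cd79b 1.18 above (2.27-fold). Just short of the bound stood Nkg7 (-0.88), Cd247 (-0.86) and Laptm5 (-0.77). When arrays were scaled to a common median, Fcer1g and Aif1 no longer passed, leaving 0 of 7 myeloid and 8 of 20 lymphoid genes. At a bound of 0.5 log2, 2 of 7 myeloid genes lay below every other array under either scaling. The part that the other segment markers of this array play was not tested.

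**Figure D3:**
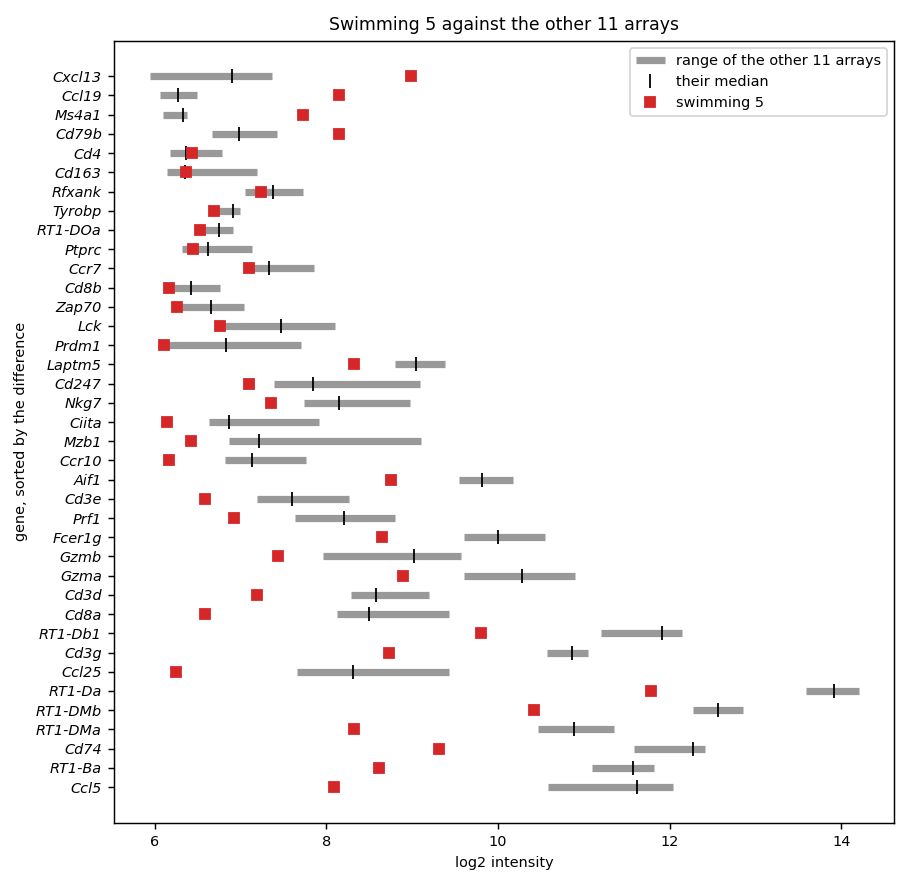
Swimming 5 (red squares) against the range (grey bars) and median (black ticks) of the other 11 arrays, in log2 intensity, for the members and class II genes brighter than the median probe (Ms4a1 only through swimming 5) and for Cxcl13, Ccl19, Ccl25 and Ccr10, sorted by the difference. Ccl5 (-3.34) and RT1-Ba (-2.88) sit farthest below the mean of the others, and Ccl19 and Cxcl13 sit above with Ms4a1 and Cd79b.

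Class II genes lay low with Cd74 in the same array. Which cells of the scrapings gave the signal of Cd74 and of these genes was not tested. Of 11 measured genes of the class II list, 5 lay past the bound below and 0 above. RT1-Ba, a class II alpha chain, read 8.61 against 11.09 to 11.81 in the other 11 arrays, and RT1-Da, another alpha chain, 11.79 against 13.59 to 14.21. RT1-DMa and RT1-DMb, which load peptides onto class II, differed by -2.58 and -2.15 from the mean of the others, and RT1-Db1, a beta chain, by -2.04. Ciita, the coactivator that switches these genes on, read 6.14 against 6.63 to 7.92. Between swimming and control rats 0 of 11 passed, 10 read lower and 1 higher with a median of -0.17, and the split was 7 lower and 4 higher without swimming 5.

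The promoters of Cd74 and of the class II genes past the bound are shown because these genes lay low together in swimming 5. Of these 6 genes, 5 had a window. ATTGG, the Y box that the factor NF-Y binds, stood in 5 of 5, against 37.5% of all windows. TAGCAAC, the core of the X box, stood in 3 of 5 against 3.58% of all windows. CTGATT, whose last bases ATT are the first of ATTGG in the run CTGATTGG, stood in 4 of 5 against 14.6%. Of the whole class II list with Cd74, measured or not, 11 genes had a window. ATTGG stood in 10 of those 11, CTGATT in 7 and TAGCAAC in 4. These 11 include the 5 genes past the bound, and also Rfx5, Rfxap and Rfxank. ATTGG and CTGATT were thus not particular to the genes past the bound. Outside those 5 genes TAGCAAC stood only in RT1-DOb. Cd74 holds TAGCAAC 72 bases and CTGATT, on the other strand, 39 bases before its start, and its ATTGG match lies farther away, at 189 bases. In RT1-Da the 3 patterns begin 84, 52 and 49 bases before the start. Shown are bases 120 to 21 before each start on GRCr8, 5′ to 3′ on the strand of the gene, with all matches of the 3 patterns in capitals.
Cd74, chr18:56527086-56527185, plus strand: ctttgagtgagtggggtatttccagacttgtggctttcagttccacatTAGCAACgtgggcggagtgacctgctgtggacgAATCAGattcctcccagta
RT1-Da, chr20:4515295-4515394, plus strand: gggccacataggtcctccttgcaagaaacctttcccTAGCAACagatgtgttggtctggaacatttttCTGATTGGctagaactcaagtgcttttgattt
RT1-Ba, chr20:4576937-4577036, plus strand: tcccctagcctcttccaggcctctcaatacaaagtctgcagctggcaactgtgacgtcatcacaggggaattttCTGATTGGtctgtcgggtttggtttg
RT1-Db1, chr20:4560183-4560282, minus strand: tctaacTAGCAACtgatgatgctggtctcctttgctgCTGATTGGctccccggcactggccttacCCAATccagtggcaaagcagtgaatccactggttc
RT1-DMa, chr20:4712356-4712455, minus strand: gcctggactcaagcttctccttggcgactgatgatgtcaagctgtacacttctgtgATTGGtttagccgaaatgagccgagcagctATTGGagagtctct

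The means of the T cell and myeloid lists were not highest in the same arrays. Leaving out swimming 5, the mean of the T cell list was highest in control 3 and swimming 3 (7.97 and 7.98) and that of the cytotoxic list likewise (9.86 and 9.83), followed by swimming 2 (9.63). The mean of the myeloid list was highest in control 2 (7.71) and swimming 1 (7.54), and from 7.31 to 7.47 in the other 9. Of 13 T cell and cytotoxic genes brighter than the median probe also without their highest array, 7 had their highest value in control 3 or swimming 3 and 1 in control 2 or swimming 1, while the 3 such myeloid genes, Aif1, Tyrobp and Fcer1g, were highest in control 2 or swimming 1. Control 3 and swimming 3 carry almost the same profile and count as 1 sample.

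Markers of other tissue moved with these arrays. The mean of 12 stroma genes was 8.19 in control 2 and 8.19 in swimming 1, against 6.98 to 7.69 in the others, and that of 7 smooth muscle genes was 7.80 and 7.82 against 7.03 to 7.33. Between the groups, 11 of these 12 stroma genes and 12 of 12 exocrine pancreas genes read higher in swimming rats. The mean of the pancreas genes was 10.46 in swimming 2, 9.38 in control 3 and 9.37 in swimming 3, against 6.53 to 7.62 in the others. The C1q genes, complement subunits made by macrophages, were also highest in control 2, where C1qb read 10.63 against 8.54 to 10.25 elsewhere. The part of stroma or pancreas in these differences was not tested.

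**Figure D4:**
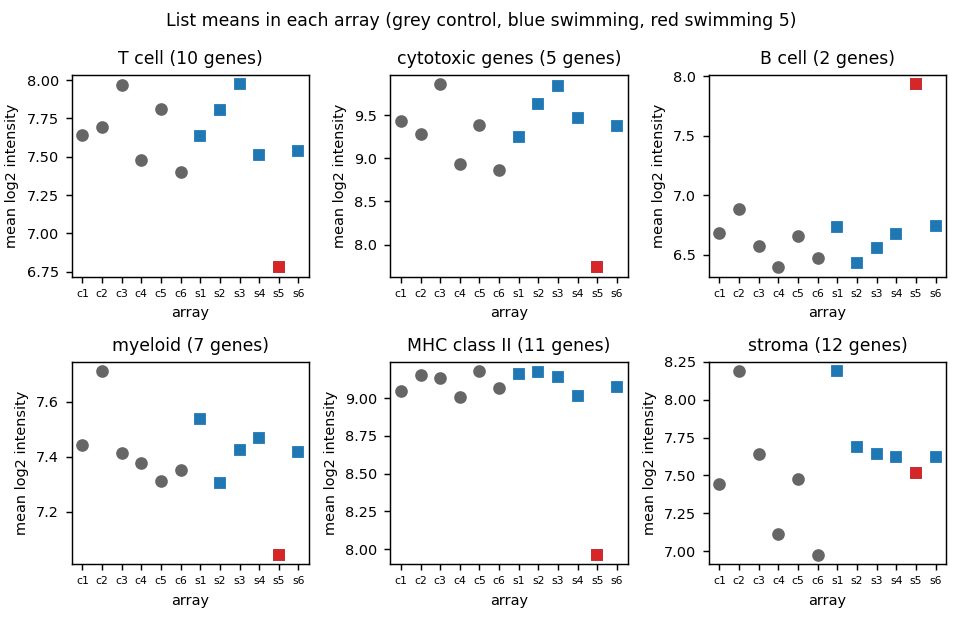
Mean log2 intensity of 6 gene lists in each array, with controls in grey (c1 to c6), swimming rats in blue (s1 to s6) and swimming 5 in red; each panel has its own vertical scale. Swimming 5 is lowest for T cell, cytotoxic, myeloid and class II genes and highest for B cell genes, and control 2 and swimming 1 are highest for both myeloid and stroma genes.

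Other genes of the same cells, from lists written with earlier results of these data known, were counted in the same fit. Of 35 other T and NK cell genes 0 passed, with 14 higher and 21 lower in swimming rats and a median of -0.029. Cd69, an early activation marker, differed by -0.41 (SE 0.18) and Lat, a scaffold of T cell receptor signalling, by -0.24 (SE 0.12), while Fyb1 differed by 0.15 and Cd48 by -0.20. Of 19 other B and plasma cell genes 0 passed, with 15 higher and 4 lower and a median of 0.066. There Xbp1, a factor of secretory cells that epithelium also uses, differed by 0.18, Cd24 by 0.13, Blk by 0.080 and Btk by 0.066. Of 35 other myeloid genes 0 passed, with 10 higher and 25 lower and a median of -0.052. Tlr2, a receptor for bacterial lipoproteins, differed by -0.31, Fcgr3a, an Fc receptor, by -0.23, Batf3 by -0.15 and Cd86, a costimulatory ligand, by 0.11. Of 22 granulocyte and mast cell genes 0 passed, with 14 higher and 8 lower, and Mcpt1, a mast cell protease, differed by 0.38 (SE 0.27), Camp by 0.088, Prg2 by -0.073 and Mcpt4 by 0.056.

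Ligands and receptors that bring these cells to the gut did not pass either, 0 of 41, with 25 higher and 16 lower and a median of 0.030. Cxcl16, the ligand of the chemokine receptor CXCR6 of T cells, differed by -0.51 (SE 0.18). Cxcl11, a chemokine induced by interferon, differed by 0.48 (SE 0.21). Ccl25, which draws CCR9-bearing lymphocytes to the small intestine, differed by -0.74 (SE 0.37), and by -0.42 without swimming 5. Madcam1, the vascular address for gut lymphocytes, differed by 0.17 (SE 0.091). In swimming 5, Ccl25 read 6.25 against 7.66 to 9.43 in the other 11 arrays, and the integrin chain Itgb7 6.71 against 7.13 to 8.22. Cxcl13 and Ccl19, chemokines of lymphoid tissue, read 8.99 and 8.15 there, against 5.94 to 7.36 and 6.06 to 6.49. Of the other myeloid genes, Cd14, the coreceptor for endotoxin, read 10.15 in swimming 5 against 6.15 to 6.84, and Cd83, a marker of mature dendritic cells, 11.02 against 8.15 to 9.40. These genes were picked for their values in that array. Of the whole lists, past the 1 log2 bound in swimming 5 lay 2 below and 1 above of 35 other T and NK cell genes, 0 of 19 other B and plasma cell genes, and 0 below and 3 above of 35 other myeloid genes. Of 22 granulocyte and mast cell genes 0 lay below and 1 above, and of 41 ligands and receptors 3 below and 2 above. Over all probes these shares were 3.57% below and 3.39% above. The median difference of the other T and NK cell genes was -0.082.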

How the data were processed

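Total RNA of 12 duodenal scrapings was converted to cRNA with a biotin label and read on rat Illumina bead arrays, per the labels' protocols. The raw table deposited by the authors gives 1 intensity per probe and array, per the file headers, with no value below 0 and unequal array medians. A second deposited table holds intensities processed by the authors, with a median of 16.0 in control 1 and 26.2% to 26.3% of the values of each array below 0. The steps behind it are not given in the sources used here. Neither table has detection p-values. Raw intensities were corrected with normexp (offset 50), quantile-normalized and log2-transformed, and swimming minus control was fitted over all 22523 probes with limma 3.58.1 in R 4.3.3 (lmFit, eBayes, two-sided, Benjamini-Hochberg, calls at adjusted p under 0.05). Symbols came from the platform annotation, where 13793 probes have 1 symbol, 0 have several and 8730 are unnamed here; 13752 matched the GRCr8 gene table by identifier. No probe filter was applied. The fit was tested on simulated data. Each named gene was chosen by a rule: in each subgroup the 2 brightest members, the 2 with the smallest p among those brighter than the median probe, and up to 3 in each direction farthest from the other arrays in swimming 5; of each companion list up to 4 bright genes with the smallest p. Beyond that rule, companion genes named for their values in swimming 5, the C1q genes, Cd163 the promoter patterns and the count of genes bright without their highest array were chosen after their values were seen. The members and lists were chosen with earlier results of these data known. Alternatives were other scalings and background corrections, the authors' table, a filter on dim probes, moderated variances, array weights, a replicate block and left-out or averaged arrays. The number of arrays limits the precision.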

Additional observations from a re-analysis of the deposited data

Results flagged for a closer look

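Near-identical pairs within a group were averaged, giving 62 sets of values (31 genes in each group). Of these sets, 8 held a sample far from the others of its group by Dixon's criterion. Among independent sets chance flags about 5%. These sets share the same arrays, so the count cannot be weighed against that rate. Of the 8 flags, 6 concerned swimming 5, which was singled out with its profile known. It was far below the other swimming samples for Ccl5 (8.08), Cd74 (9.31), Cd3g (8.73) and Prf1 (6.92), and far above them for Cd79b (8.15) and Ms4a1 (7.73). Control 2 was far above the other controls for Mzb1, at 9.10 against 7.31 for the nearest. The mean of swimming 4 and swimming 6 was above the other swimming samples for Itgam, at 6.44 against 6.29 for the nearest, in a dim probe.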

How the results depend on the processing

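No probe passed in any of the 23 alternatives, and the smallest adjusted p was 0.112, without control 3. Leaving out 1 array at a time, 0 probes were called, the lymphoid median lay between -0.20 and -0.0012 with 5 to 10 genes higher (10 without swimming 5), and the myeloid median between -0.12 and -0.019 with 2 to 3 higher. With dim probes left out, 0 myeloid genes read higher, as 3 of the 7 were not tested. Under median scaling 0 myeloid genes lay past the bound below in swimming 5, and the cause was not tested. For all members the count below was 9 to 15 at that bound across scalings and background corrections. At a bound of 0.5 log2 it was 13 to 19 across them, and 17 with the main scaling. Of 437 differences of 19 named genes under alternatives, 21 had the other sign, none of them called. In the restricted comparison these were Cd3g (0.21), Cd8a (0.14), Ccl5 (0.62), Gzma (0.033), Cd74 (0.35), Cd79b (-0.038) and Ms4a1 (-0.041), and with array weights Cd3g (0.076), Ccl5 (0.36) and Cd74 (0.10). Ccl5 was 0.12 under median scaling and 0.020 under cyclic loess. With 1 array left out the range was -0.30 to 0.17 for Cd3g, -0.43 to 0.14 for Cd8a, -0.20 to 0.58 for Ccl5, -0.32 to 0.080 for Gzma, -0.40 to 0.12 for Mzb1, -0.29 to 0.038 for Fcer1g and -0.31 to 0.30 for Cd74. Titles share replicate numbers, but deviations of same-numbered arrays correlated between -0.025 and 0.73 and above 0.1 in 3 of 6 pairs only, so the numbers were not taken as pairs; with the replicate block 0 probes were called, with 1052 unadjusted and a smallest adjusted p of 0.864. No column names a slide, so a slide block was not run, and the mean over all probes of a gene equals the value used, as each member has 1 probe. Intensities near background limit what can be said of Cd4, Cd5, Irf4, Itgam, Cx3cr1 and Adgre1, and low ones of Cd163 and Ptprc.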
